A study of Mus musculus with 10 samples.

Results

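*Lef1*, *Tcf7* and the genes of their cofactors were followed through sorted spleen CD4+ T cells of mice with and without *Satb1*, a chromatin organizer of T cells. The 10 members, chosen by symbol, were the transcription factor genes *Lef1* and *Tcf7*, the *Lef1* antisense gene *Gm43352*, the coactivator genes *Ctnnb1*, *Bcl9* and *Bcl9l*, the corepressor genes *Tle3* and *Tle4*, and *Axin2* and *Apc*. They were 10 of 48321 gene symbols counted, and all 10 were among the 13796 genes that passed the filter on low counts. All mice were C57BL/6, 8 to 12 weeks old on average, and carried the Foxp3-Gfp reporter. In KO mice, Satb1 F/F was combined with Thpok-cre, which deletes *Satb1* after commitment to the CD4 lineage, in the whole CD4 compartment and not in Tregs alone. Control mice are labelled WT, with nothing more on their genotype. GFP, taken as a readout of FoxP3, and CD25 were used to sort the cells into 5 groups of 2 libraries: WT and KO FoxP3+CD25+ cells (Tregs), WT and KO FoxP3-CD25- cells (non-Treg cells), and KO FoxP3+CD25- cells. Libraries with the same number within a genotype were read as coming from 1 mouse, which the labels leave unstated. The main tests did not use this pairing. A fit with the mouse as a block is given beside them where it changed a call.

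LEF-1 and TCF-1, the products of *Lef1* and *Tcf7*, are HMG-box proteins that bind the same short DNA motif and are needed for T cell development in the thymus. In mature T cells both are known for high expression in naive cells. On DNA they recruit Groucho-type corepressors, among them TLE3 and TLE4, or β-catenin, which brings BCL9 or BCL9L as a bridge to further coactivators. In Wnt signalling, a complex built on AXIN and APC marks β-catenin for degradation, and *Axin2* is itself a widely used target gene of the pathway.

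*Lef1* lies on chromosome 3 (GRCm38, 131110471 to 131224356, plus strand). *Gm43352* is a single-exon antisense gene on the other strand (131109026 to 131112090). It begins inside *Lef1*, covers the whole first exon of *Lef1* (131110471 to 131111678, 1208 bases), and runs 1445 bases beyond the *Lef1* start. The shared stretch makes up 39.4% of the exon of *Gm43352* and 13.7% of the joined exons of *Lef1*. The other 1857 bases of *Gm43352* lie in no *Lef1* exon. The strand setting of the counting is not given in the sources used here. Whether reads of the antisense gene and of *Lef1* were told apart over that stretch is therefore unknown. Reads in no gene came to 1.32 to 1.53 times the gene counts of a library. Ambiguous reads were 1.47% to 1.65% of gene and ambiguous counts together. Counts of *Gm43352* may hold reads of *Lef1*, which was not tested. The other members lie elsewhere: *Tcf7* on chromosome 11 (52252371 to 52283014, minus strand, with no exon base shared with another gene) and *Axin2* on chromosome 11 (108920349 to 108950783, plus strand).

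The 250 bases before 2 RefSeq starts of *Lef1* and before the start of *Axin2* are printed because *Lef1* and *Axin2* moved with cell type below, and because the first *Lef1* window lies within the antisense gene. They were taken from RefSeq promoter windows (GRCm38.p6, plus strand for all 3). Capitals mark a match to the LEF-1 and TCF-1 motif, searched as CTTTGAA, the variant CTTTGAT, the variant CTTTGTA or the variant CTTTGTT on both strands. No other motif was searched.
Lef1, first start, chr3:131110047-131110296: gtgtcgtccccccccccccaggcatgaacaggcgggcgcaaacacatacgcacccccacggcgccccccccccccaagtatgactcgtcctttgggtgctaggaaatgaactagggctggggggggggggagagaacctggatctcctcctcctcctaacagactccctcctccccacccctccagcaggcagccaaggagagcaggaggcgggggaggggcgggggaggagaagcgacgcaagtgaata
Lef1, internal start, chr3:131156044-131156293: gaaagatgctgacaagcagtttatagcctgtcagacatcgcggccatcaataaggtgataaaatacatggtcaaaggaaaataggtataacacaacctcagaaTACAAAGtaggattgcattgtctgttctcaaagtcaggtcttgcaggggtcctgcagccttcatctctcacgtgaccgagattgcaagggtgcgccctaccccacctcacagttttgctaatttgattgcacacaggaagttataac
Axin2, chr11:108920099-108920348: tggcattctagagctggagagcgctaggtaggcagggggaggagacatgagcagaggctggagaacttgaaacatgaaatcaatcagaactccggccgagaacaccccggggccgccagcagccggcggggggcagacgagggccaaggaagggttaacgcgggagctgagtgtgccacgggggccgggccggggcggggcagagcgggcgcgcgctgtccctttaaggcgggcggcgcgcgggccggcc
The internal *Lef1* window held the only match, TACAAAG, the reverse complement of CTTTGTA. RefSeq windows of 300 bases (250 before and 50 after a start) were at hand for 7 members, 13 windows in all, and this was the 1 window with a match. Of all 32851 windows of that length, 5544 (16.9%) held one.

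Libraries held 6094952 to 12410064 gene counts (median 7721649). The floor of 3 counts corresponds to 0.242 to 0.492 CPM (counts divided by library size, before scaling), covering counting error only. *Foxp3* had mean levels of 667 and 693 CPM in WT and KO Tregs. It had 339 CPM in cells of the KO FoxP3+CD25- sort, against 18.3 and 29.2 in WT and KO non-Treg cells. *Il2ra*, which encodes CD25, had 709 and 653 CPM in Tregs, against 16.8 in that KO sort and 2.55 and 8.41 in non-Treg cells. *Satb1* had 566 ± 45.5 CPM in KO against 428 ± 69.6 in WT Tregs, and 762 ± 113 in KO against 849 ± 44.9 in WT non-Treg cells, whose libraries overlapped (SD, n = 2). It had 1090 ± 136 CPM in cells of the KO FoxP3+CD25- sort, the highest mean of the 5 groups. The label KO could not be checked from it, since gene counts do not resolve the deleted exons. The CD4 T cell markers all passed the filter. Summed markers of B cells came to 2.58 to 20.9 CPM, those of myeloid and dendritic cells to 13.9 to 21.4, of CD8 T and NK cells to 9.73 to 26.7, and of erythroid cells and platelets to 0 to 1.98. The pair of WT replicate 1 libraries stood apart in sex-linked genes, with 14487 and 16362 *Xist* counts against at most 4 elsewhere. The Y-chromosome genes *Ddx3y*, *Eif2s3y*, *Kdm5d* and *Uty* together had 0 counts in that pair against 3039 to 4750 elsewhere. WT replicate 1 thus had the pattern of a female and all others that of males, so sex was not balanced between the genotypes. Each WT comparison was therefore also made without the libraries of WT replicate 1.

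Levels per length (RPKM, CPM divided by the joined exon length in kilobases) put *Tcf7* first among the members in all 5 groups. In WT non-Treg cells it had 798 RPKM, followed by *Lef1* with 74.1, *Ctnnb1* with 50.7 ± 7.56, *Bcl9l* with 33.8 ± 1.57 and *Tle3* with 32.0 ± 3.23 (SD, n = 2). The antisense gene *Gm43352* had 30.0 RPKM there, *Tle4* 19.5 ± 1.78, *Axin2* 19.1 ± 3.75, *Apc* 12.7 and *Bcl9* 8.24. *Bcl9l* and *Tle3*, and *Tle4* and *Axin2*, were neighbours within their spread. In WT Tregs *Tcf7* (348 RPKM) was followed by *Ctnnb1* (51.8) and *Tle3* (33.0), and *Lef1* had rank 4 with 23.7 ± 2.95, within the spread of *Bcl9l* (23.1 ± 3.86). All values that follow are CPM scaled by TMM factors, compared within a gene and not between genes.

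*Lef1* had 649 and 654 CPM in the WT non-Treg libraries and 652 and 630 in those of KO FoxP3+CD25- cells. It had 546 and 454 CPM in KO non-Treg cells, 304 and 236 in KO Tregs, and 190 and 226 in WT Tregs. All libraries of Tregs were thus below all others, and the libraries of WT non-Treg cells and KO FoxP3+CD25- cells overlapped. *Tcf7* had 2143 and 2045 CPM in WT non-Treg cells, 2038 and 2085 in KO non-Treg cells, 973 and 853 in WT Tregs, and 881 and 884 in KO Tregs. The libraries of KO FoxP3+CD25- cells held 1626 and 1740 CPM. Here WT and KO libraries of the same sorted population overlapped, and KO FoxP3+CD25- cells lay between Tregs and non-Treg cells. Fewer cells of a type and less RNA per cell cannot be told apart in such sorted bulk samples.

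**Figure D1:**
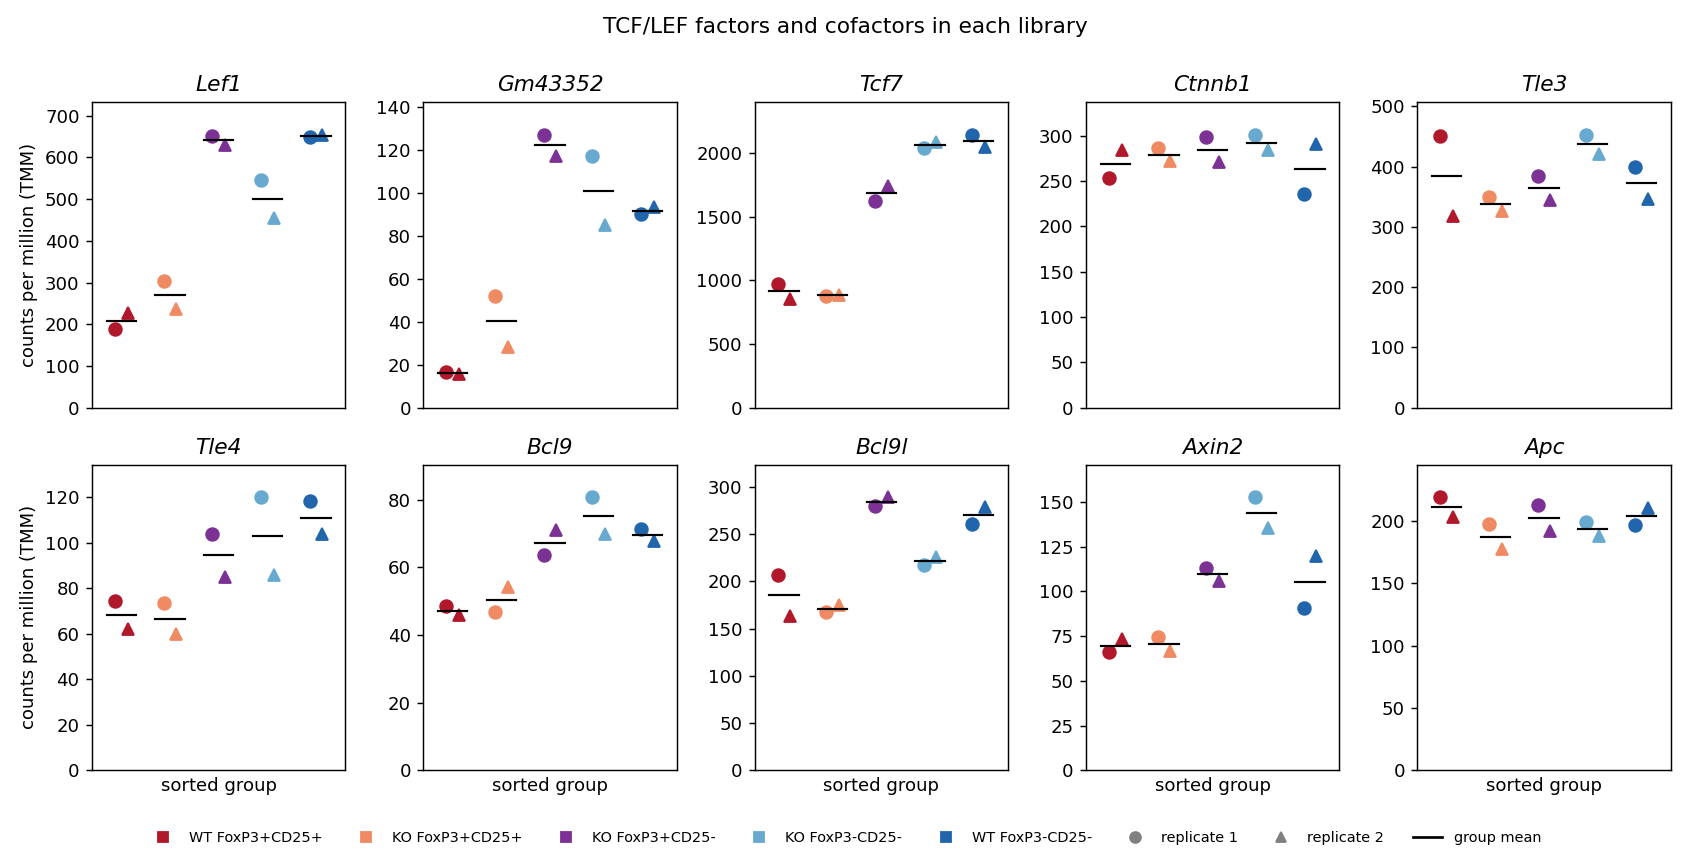
Levels of the 10 members in CPM (vertical axes, from 0) in the 5 sorted groups (horizontal axes); circles are replicate 1, triangles replicate 2 and lines the mean of the 2 libraries. *Lef1*, *Gm43352* and *Tcf7* were lowest in FoxP3+CD25+ cells of both genotypes, whereas *Ctnnb1* (group means of 263 to 292 CPM) and *Apc* (188 to 211 CPM) had overlapping libraries in WT cells.

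The first comparison was between Tregs and non-Treg cells of WT mice. Both transcription factor genes were lower in Tregs, together with the antisense gene, 1 of the 2 corepressor genes, both BCL9 genes and *Axin2*. By edgeR's quasi-likelihood test with Benjamini-Hochberg adjustment (FDR under 0.05 over 13796 genes), 7 of 10 members fell and none rose, where 10.9% of all genes tested were called in either direction, 3.75% as lower and 7.15% as higher. The median log2 fold change was −0.58 for the members and −0.02 for all genes tested.

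*Lef1* was 208 ± 25.9 CPM in WT Tregs against 652 ± 3.93 in WT non-Treg cells (SD, n = 2), 3.13-fold lower (log2 fold change −1.65, SE 0.15, edgeR FDR = 5.7e-05). *Tcf7* was 913 ± 85.0 against 2094 ± 69.5 CPM, 2.29-fold lower (−1.20, SE 0.12, edgeR FDR = 0.000107). These differences kept their call when any of the 4 libraries, or both of WT replicate 1, were left out.

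In KO mice the same comparison gave a smaller value for *Lef1* and a like one for *Tcf7*. *Lef1* was 270.0 ± 48.0 CPM in KO Tregs against 499.9 ± 65.1 in KO non-Treg cells, 1.85-fold lower (−0.89, SE 0.15, edgeR FDR = 0.0042). Without KO FoxP3+CD25+ replicate 2 its FDR was 0.0531. *Tcf7* was 882 ± 2.53 against 2061 ± 32.7 CPM, 2.34-fold lower (−1.22, SE 0.12, edgeR FDR = 0.000187). Among the members, 5 of 10 fell and none rose, where 6.34% of all genes were called, 2.81% as lower and 3.52% as higher. The median log2 fold change was −0.60 for the members and 0.00 for all genes. With the mouse as a block, 8 members fell in KO mice, where 12% of all genes were called (5.47% lower, 6.49% higher), and 7 in WT mice, where 19.1% were (7.75% lower, 11.3% higher).

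Marker lists moved with the same comparison. The summed naive T cell markers (*Ccr7*, *S1pr1*, *Klf2*, *Dapl1*, *Igfbp4* and *Actn1*) came to 1577 to 2018 CPM in WT Tregs against 3619 to 3831 in WT non-Treg cells, and to 1838 to 1944 against 2861 to 3351 in KO cells. Of these 6 genes, 5 were lower in WT Tregs and 4 in KO Tregs. The effector or memory T cell markers summed to 1997 to 2457 CPM in WT Tregs against 756 to 1266 in WT non-Treg cells, with 4 of the 10 genes higher and 0 lower. In KO cells they summed to 1696 to 2055 against 1686 to 2173, with 1 gene higher and 2 lower and a median log2 fold change of −1.02. *Il2rb* made up much of the KO Treg sum (977 against 275 CPM), while *Itgb1* had 332 against 938 CPM. In WT cells too, *Il2rb* made up much of the Treg sum (968 against 136 CPM), while *Itgb1* had 474 against 452 CPM. The part of the marker genes in the levels of *Lef1* and *Tcf7* was not tested.

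Of the coactivator genes, *Ctnnb1*, which encodes β-catenin, passed the test in neither genotype. Its libraries held 253 and 284 CPM in WT Tregs and 235 and 291 in WT non-Treg cells, overlapping, for a log2 fold change of 0.03 with a 95% interval of −0.24 to 0.30. In KO cells it was −0.07 (−0.34 to 0.20). Of its exon bases, 15.1% are shared with other genes, mainly *Ulk4*.

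The bridging genes were lower in WT Tregs. *Bcl9* had 48.5 and 45.8 CPM in WT Tregs against 71.4 and 67.8 in WT non-Treg cells (log2 fold change −0.56, SE 0.12, edgeR FDR = 0.0137). *Bcl9l* had 207 and 163 against 261 and 279 CPM (−0.55, SE 0.12, edgeR FDR = 0.0121). Neither pair of groups overlapped, as was so for 23.9% of all genes tested in that direction, and these calls were narrow. *Bcl9* lost its call without WT FoxP3-CD25- replicate 1 (FDR = 0.0849) or replicate 2 (0.0581) or WT FoxP3+CD25+ replicate 2 (0.0508), and *Bcl9l* without WT FoxP3+CD25+ replicate 2 (0.0501) or WT FoxP3-CD25- replicate 2 (0.0858).

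In KO cells *Bcl9* had 46.7 and 54.1 CPM in Tregs against 80.7 and 70.0 in non-Treg cells (−0.58, SE 0.13, edgeR FDR = 0.0206). It lost its call without KO FoxP3+CD25+ replicate 1 (FDR = 0.185) or replicate 2 (0.0571) or KO FoxP3-CD25- replicate 1 (0.175). *Bcl9l* had 167 and 175 against 217 and 226 CPM, a log2 fold change of −0.37 that did not pass (edgeR FDR = 0.109, and 0.0318 with the mouse as a block). *Bcl9l* shares 772 exon bases with *Gm47205* (most of them) and *Cxcr5*, both on the other strand. The group means of *Cxcr5* were 50.0 and 35.2 CPM in WT Tregs and non-Treg cells and 31.6 and 62.1 in KO Tregs and non-Treg cells.

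The corepressor genes differed from each other in the test. *Tle4* had 74.2 and 62.0 CPM in WT Tregs against 118 and 104 in WT non-Treg cells (−0.71, SE 0.18, edgeR FDR = 0.0276), but lost its call without any 1 of those 4 libraries (FDR of 0.0517 to 0.158). In KO cells it had 73.4 and 59.9 CPM in Tregs against 120 and 85.6 (−0.62, edgeR FDR = 0.0773, and 0.0010 with the mouse as a block). *Tle3* had 451 and 318 CPM in WT Tregs against 400 and 346 in WT non-Treg cells, with overlapping libraries and a log2 fold change of 0.04 (95% interval −0.30 to 0.39). In KO cells it had 350 and 326 against 453 and 421 CPM (−0.37, edgeR FDR = 0.261, and 0.0142 with the mouse as a block). These libraries did not overlap, as was so for 23% of all genes tested in that direction.

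Of the degradation complex, *Apc*, the gene of the scaffold APC, passed the test in neither genotype. Its log2 fold change between Tregs and non-Treg cells was 0.05 (95% interval −0.18 to 0.28) in WT mice and −0.05 (−0.28 to 0.19) in KO mice. *Axin2*, the gene of a scaffold and feedback inhibitor of the pathway, had 66.0 and 73.2 CPM in WT Tregs against 90.7 and 120 in WT non-Treg cells (−0.59, SE 0.14, edgeR FDR = 0.0207). *Axin2* shares 209 exon bases with *Gm11670* on the other strand. The WT call was lost without WT FoxP3+CD25+ replicate 1 (FDR = 0.141) or WT FoxP3-CD25- replicate 2 (0.21). In KO cells it had 74.6 and 66.6 CPM in Tregs against 153 and 135 in non-Treg cells, 2.04-fold lower (−1.03, SE 0.14, edgeR FDR = 0.00182), a call kept without any 1 of the 4 libraries. Without both libraries of WT replicate 1, *Tle4* (FDR = 0.186) and *Bcl9* (0.143) lost their calls in the WT comparison and 5 members remained called.

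**Figure D2:**
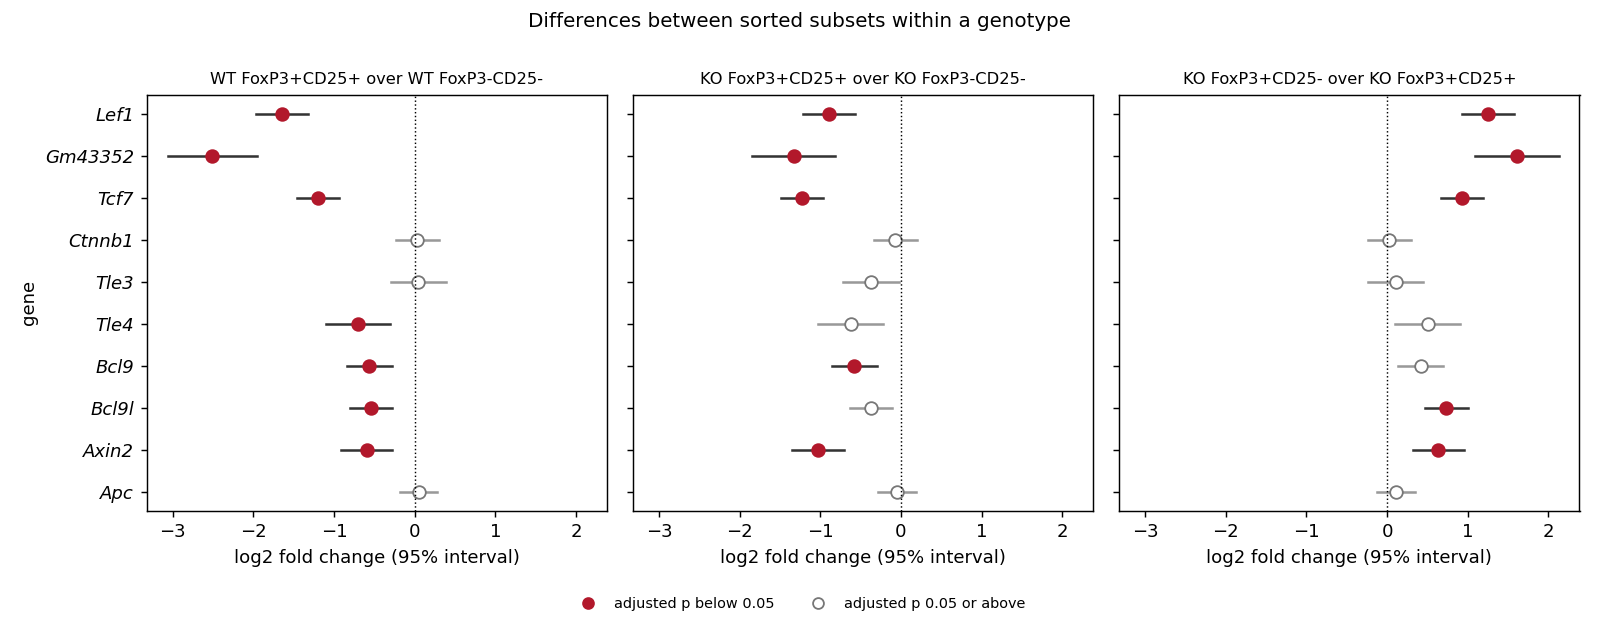
Log2 fold changes of the 10 members (horizontal axis, 95% intervals as bars) between sorted populations, each panel 1 comparison. *Lef1*, *Gm43352* and *Tcf7* lie to the left in Tregs against non-Treg cells of both genotypes and to the right in KO FoxP3+CD25- cells against KO Tregs, and *Apc* and *Ctnnb1* lie near 0 in both comparisons of Tregs with non-Treg cells.

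KO FoxP3+CD25- cells carry FoxP3 without CD25. They were compared with KO Tregs, which share FoxP3, and with the KO and WT cells without either protein. These comparisons share libraries with each other and with that of KO Tregs and non-Treg cells, so they are not independent. Against KO Tregs, *Lef1*, *Gm43352*, *Tcf7*, *Bcl9l* and *Axin2* were higher, 5 of 10 members, where 7.02% of all genes were called, 2.25% as higher and 4.76% as lower. No member was lower, and the median log2 fold change was 0.57 for the members and 0.00 for all genes.

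*Lef1* was 641 ± 15.7 CPM in KO FoxP3+CD25- cells, 2.37-fold above KO Tregs (log2 fold change 1.25, SE 0.15, edgeR FDR = 0.000562). *Tcf7* was 1683 ± 80.7 CPM, 1.91-fold above (0.93, SE 0.12, edgeR FDR = 0.000808). Both calls held without any 1 of the 4 libraries. *Bcl9l*, with 280.1 and 289 CPM in KO FoxP3+CD25- cells, was 1.66-fold above KO Tregs (0.74, SE 0.12, edgeR FDR = 0.00366), while *Cxcr5* at 11.4 CPM was lower than in KO Tregs (−1.48, edgeR FDR = 0.0047). *Axin2*, with 113 and 106 CPM, was 1.55-fold above (0.63, SE 0.14, edgeR FDR = 0.0227), and lost that call without any 1 of the 4 libraries (FDR of 0.0782 to 0.189). *Tle4* (104 and 85.0 CPM) and *Bcl9* (63.5 and 71.0 CPM) had log2 fold changes of 0.50 and 0.42 that did not pass (edgeR FDR = 0.149 and 0.0819, and 0.0034 and 0.0326 with the mouse as a block). The block gave 7 members higher in all, where 15.1% of all genes were called (6.15% higher, 9% lower).

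Against KO non-Treg cells no member passed edgeR's quasi-likelihood test, where 1.67% of all genes did (0.319% higher, 1.35% lower). At an unadjusted p under 0.05 there were 4 members and 1381 of all 13796 genes tested. DESeq2, the likelihood ratio test and the exact test called 0 members. With the mouse as a block 3 members were called, where 5.7% of all genes were (1.85% higher, 3.86% lower), and they went in different directions. *Lef1* was higher in KO FoxP3+CD25- cells (log2 fold change 0.36 without the block, 95% interval 0.04 to 0.68, edgeR FDR = 0.386, and FDR = 0.044 with it), by 0.26 and 0.47 in the 2 mice. *Tcf7* was lower (−0.29, 95% interval −0.55 to −0.03, edgeR FDR = 0.385, and 0.0479 with the block), by −0.33 and −0.26 in the 2 mice. *Axin2* was lower too (−0.40, edgeR FDR = 0.293, and 0.0264 with the block), by −0.43 and −0.35. *Lef1* and *Tcf7* thus stood on opposite sides of KO non-Treg cells in both mice.

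Against WT non-Treg cells no member passed edgeR's quasi-likelihood test, where 0.768% of all genes did (0.355% higher, 0.413% lower). At an unadjusted p under 0.05 there was 1 member, beside 1214 of all 13796 genes tested. DESeq2, the likelihood ratio test and the exact test called 0 members. *Lef1* differed by −0.02 (95% interval −0.34 to 0.29) and *Tcf7* by −0.32 (−0.57 to −0.06, edgeR FDR = 0.409). Marker genes moved here as well: the effector or memory markers summed to 400 to 514 CPM in KO FoxP3+CD25- cells, below every other group. Of these 10 genes, 3 were called lower than in WT non-Treg cells and 7 lower than in KO non-Treg cells. The naive markers summed to 3187 to 3344 CPM, within the range of KO non-Treg cells and below WT non-Treg cells. Of the 6 naive genes, 0 were called against either. Their part in the levels of the members was not tested.

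**Figure D3:**
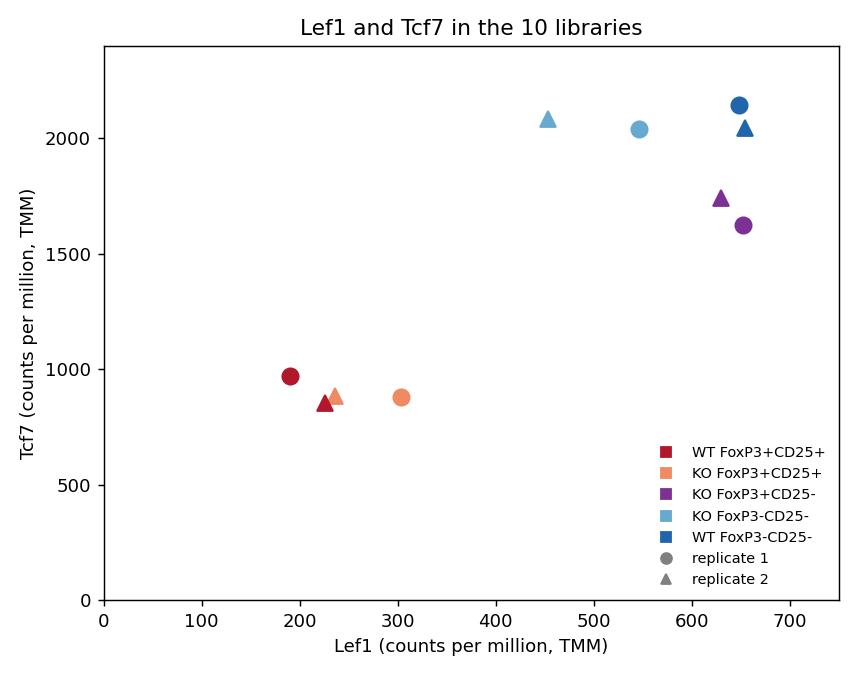
*Tcf7* (vertical axis, CPM) against *Lef1* (horizontal axis, CPM) in the 10 libraries, 1 marker per library. The 4 Treg libraries form a separate cluster at low levels of both genes, and among the 6 others KO FoxP3+CD25- cells have less *Tcf7* than all non-Treg libraries while their *Lef1* lies above that of KO non-Treg cells.

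KO and WT cells of the same sorted population were compared next, to ask what loss of *Satb1* went with. In Tregs no member passed edgeR's quasi-likelihood test, where 0.00725% of all genes (1 gene) did. At an unadjusted p under 0.05 there were 2 members and 593 of all 13796 genes tested. The exact test called 0 members, and DESeq2 and the likelihood ratio test each called 1 member, *Gm43352*. *Lef1* was higher in KO Tregs by 0.38 (95% interval 0.05 to 0.70, edgeR FDR = 1). Its libraries did not overlap, as was so for 13.5% of all genes tested in that direction. *Tcf7* differed by −0.05 (−0.31 to 0.21), with the KO libraries inside the range of the WT ones.

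In non-Treg cells no member passed edgeR's quasi-likelihood test either, where 0.145% of all genes did (0.116% higher, 0.029% lower). At an unadjusted p under 0.05 there were 3 members and 1106 of all 13796 genes tested. DESeq2, the likelihood ratio test and the exact test called 0 members. *Lef1* was lower in KO cells by −0.38 (95% interval −0.70 to −0.07, edgeR FDR = 0.493). Again its libraries did not overlap, as was so for 19.3% of all genes tested in that direction. *Tcf7* differed by −0.02. *Axin2* was higher by 0.45 (0.14 to 0.76, edgeR FDR = 0.36) and *Bcl9l* lower by −0.29 (edgeR FDR = 0.565). *Lef1* thus had opposite signs in the KO cells of the 2 populations, and neither value passed the test. Marker sums of non-Treg cells differed between the genotypes as well, without overlap: naive markers were 2861 to 3351 CPM in KO against 3619 to 3831 in WT, and effector or memory markers 1686 to 2173 against 756 to 1266. Of the 6 naive and 10 effector or memory genes, however, 0 were called between KO and WT non-Treg cells. *Itgb1* (938 ± 272 CPM in KO against 452 ± 186 in WT) made up much of the effector or memory gap. *Igfbp4* (655 against 1077 CPM) made up much of the naive gap, while the naive marker *Klf2* went the other way (734 against 651 CPM). In Tregs both sums overlapped (naive 1838 to 1944 in KO against 1577 to 2018 in WT, effector or memory 1696 to 2055 against 1997 to 2457). Their part in the values of *Lef1* was not tested.

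The difference between those KO effects, Tregs minus non-Treg cells, was 0.76 for *Lef1* (95% interval 0.31 to 1.21, unadjusted p = 0.00362, edgeR FDR = 0.617). With the mouse as a block it was 0.76 (SE 0.13, edgeR FDR = 0.0243), a call that depends on the reading of library numbers as mice. Within mice, the log2 ratio of Tregs to non-Treg cells for *Lef1* was −1.77 and −1.53 in WT and −0.85 and −0.94 in KO. The ratios of the 2 genotypes did not overlap, with only 2 values in each. For *Tcf7* they were −1.14 and −1.26 in WT and −1.21 and −1.24 in KO, overlapping, and the difference was −0.03 (−0.39 to 0.34). For *Axin2* they were −0.46 and −0.71 in WT and −1.03 and −1.02 in KO, with a difference of −0.43 that did not pass (edgeR FDR = 1, and 0.193 with the block).

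Without the block no member passed edgeR's quasi-likelihood test of this difference, where 0% of all genes did. At an unadjusted p under 0.05 there were 2 members and 685 genes, and of all genes DESeq2 called 25 and the likelihood ratio test 32, in both cases with 0 members. With the block 2 members were called, *Lef1* and *Gm43352*, where 1.08% of all genes were called, 0.174% as higher and 0.906% as lower. Without both libraries of WT replicate 1 the *Lef1* difference was 0.64 (edgeR FDR = 1). The WT Treg libraries differed from each other more than those of other groups (chi-square per degree of freedom of 13.5 against 4.79 to 6.65). Without WT FoxP3+CD25+ replicate 2, 121 genes were called for the difference, with 0 members among them (*Lef1* 0.88, edgeR FDR = 0.0930).

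**Figure D4:**
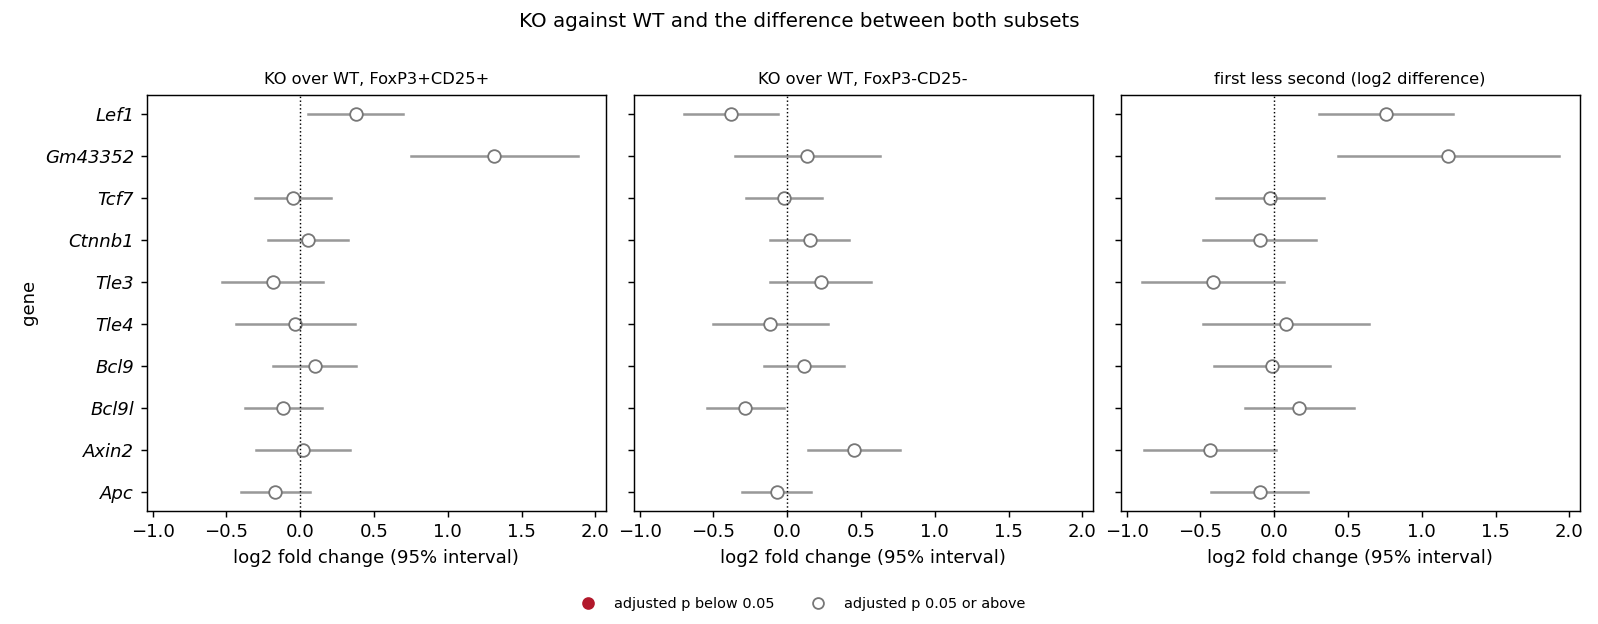
Log2 fold changes of the 10 members between KO and WT cells of the same sorted population, and the difference of these KO effects (horizontal axis, 95% intervals as bars). *Lef1* lies to the right in FoxP3+CD25+ cells (0.38) and to the left in FoxP3-CD25- cells (−0.38), and *Tcf7* lies near 0 in both.

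Like those of *Lef1*, the counts of the antisense gene were lower in Tregs than in the other sorted populations, and by more. Part of them may be *Lef1* reads over the shared stretch, so they cannot be taken as independent of *Lef1*. *Gm43352* had 16.5 and 15.7 CPM in WT Tregs, 52.2 and 28.4 in KO Tregs, 90.2 and 93.5 in WT non-Treg cells, 117 and 85.1 in KO non-Treg cells, and 127 and 118 in KO FoxP3+CD25- cells. The Treg libraries were the lowest, with WT below KO and no overlap between them, as was so for 13.5% of all genes tested. Tregs were 5.70-fold lower than non-Treg cells in WT (log2 fold change −2.51, SE 0.25, edgeR FDR = 0.000113) and 2.52-fold lower in KO (−1.33, SE 0.24, edgeR FDR = 0.00657). The second value had an FDR of 0.054 without KO FoxP3-CD25- replicate 1. KO FoxP3+CD25- cells were 3.05-fold above KO Tregs (1.61, SE 0.23, edgeR FDR = 0.00202) and differed from KO non-Treg cells by 0.28 (edgeR FDR = 0.841) and from WT non-Treg cells by 0.41 (edgeR FDR = 0.705).

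Between KO and WT Tregs, *Gm43352* was higher by 1.32 (95% interval 0.75 to 1.88, unadjusted p = 0.000348, edgeR FDR = 0.848), the lowest p among the members and rank 5 among all genes tested. It was called by DESeq2 (FDR = 0.000824), by the likelihood ratio test (0.00243), without a filter on low counts (0.0361), and without KO FoxP3+CD25+ replicate 2 (0.0392). In non-Treg cells the KO effect was 0.14. The difference of the KO effects was 1.18 (0.43 to 1.93, unadjusted p = 0.00539, edgeR FDR = 0.708) and, with the mouse as a block, 1.16 (SE 0.22, edgeR FDR = 0.0349).

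Since both genes share bases (13.7% of the joined exons of *Lef1*), their ratio was taken within each library. Per 100 *Lef1* counts there were 8.70 and 6.94 *Gm43352* counts in WT Tregs and 17.2 and 12.04 in KO Tregs. There were 13.9 and 14.3 in WT non-Treg cells, 21.5 and 18.8 in KO non-Treg cells, and 19.5 and 18.7 in KO FoxP3+CD25- cells. KO libraries were above WT libraries of the same sorted population in both cases, without overlap.

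With the counts of both genes summed, Tregs were lower than non-Treg cells by −1.73 in WT and −0.95 in KO, and the KO effects were 0.47 in Tregs (edgeR FDR = 1) and −0.31 in non-Treg cells. The difference of KO effects for the sum was 0.78 (edgeR FDR = 0.697). In these comparisons the sum kept the directions seen for *Lef1* alone.

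**Figure D5:**
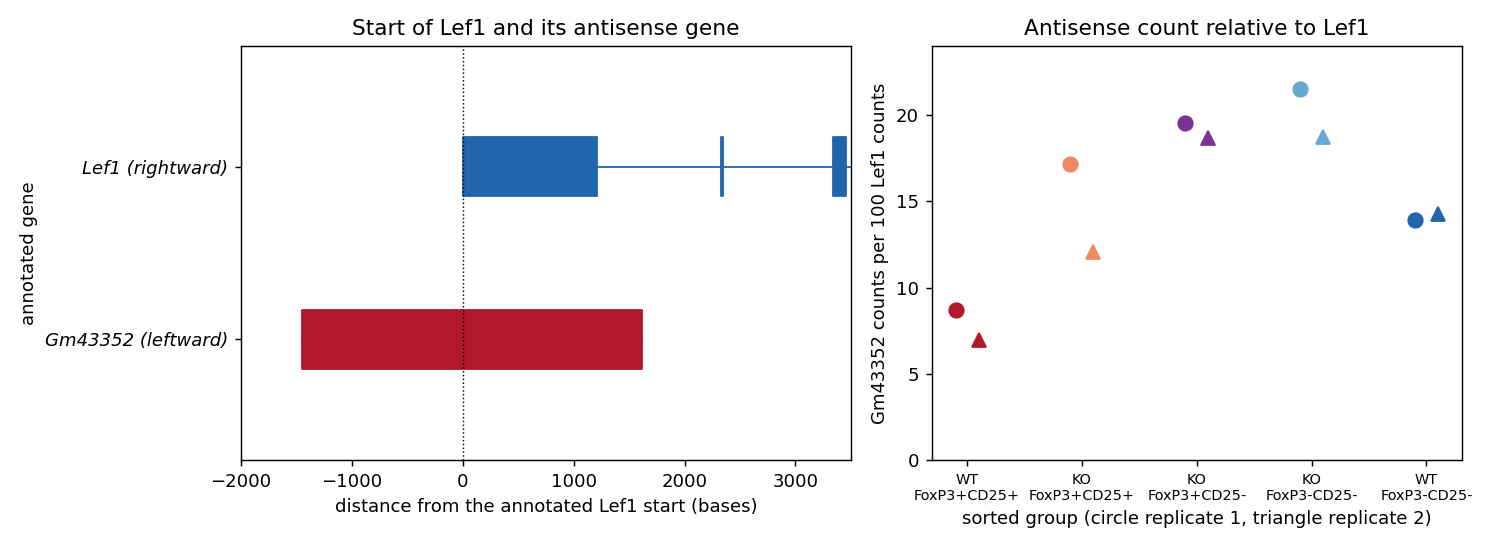
Left, the start of *Lef1* (drawn from its start at 0, in bases) with *Gm43352* on the other strand, from 1445 bases before to 1619 after that point; right, *Gm43352* counts per 100 *Lef1* counts in each library. The ratio is lowest in WT Tregs (8.70 and 6.94) and highest in KO non-Treg (21.5 and 18.8) and KO FoxP3+CD25- cells (19.5 and 18.7).

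Other genes of the Wnt pathway were taken from 5 lists (ligands and their secretion, receptors, degradation complex, nuclear partners, inhibitors) of 93 genes, 50 of which passed the filter. Of the 21 ligand and secretion genes 6 passed, as did 6 of 18 receptor genes and 6 of 18 inhibitor genes. All 18 genes of the degradation complex list and 14 of 18 nuclear partners passed. In WT Tregs against non-Treg cells 6 of the 50 were higher and 3 lower, and in KO mice 2 were higher and 3 lower. These shares, 18% and 10%, stand beside the 10.9% and 6.34% of all genes given above. The median log2 fold change of the 50 genes was 0.09 in WT and −0.05 in KO.

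*Wls*, needed for Wnt secretion, was higher in WT Tregs (131 against 33.4 CPM, log2 fold change 1.97, edgeR FDR = 0.000133) and in KO Tregs (0.95, edgeR FDR = 0.0161). *Nlk*, a kinase that acts on LEF-1 and TCF proteins, was lower in WT Tregs (81.3 against 116 CPM, −0.51, edgeR FDR = 0.00574) and in KO Tregs (−0.50, edgeR FDR = 0.011). The receptor gene *Fzd7* was higher in both (3.19 and 2.38, edgeR FDR = 0.0032 and 0.0417), on at most 22 counts per library. *Ryk*, *Wnt3* and *Amer1* were higher in WT Tregs (1.64, 1.35 and 0.55, edgeR FDR = 0.00384, 0.0223 and 0.00702), and *Jup* and *Csnk1g2* were lower in KO Tregs (−2.46 and −0.44, edgeR FDR = 0.0112 and 0.0229).

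In KO FoxP3+CD25- cells, *Rnf43*, a ubiquitin ligase that removes Wnt receptors, had 7.27 CPM against 35.3 in KO non-Treg cells (−2.28, edgeR FDR = 0.0267) and 31.7 in KO Tregs (−2.12, edgeR FDR = 0.0123). *Ryk*, a Wnt receptor gene, had 4 counts in each library of these cells and was lower than in KO non-Treg cells (−3.45, edgeR FDR = 0.00494). *Wnt3* had 2 counts in each and was lower as well (−3.91, edgeR FDR = 0.00934). These 3 of 50 genes (6%, beside 1.67% of all genes) were the ones called there, and against KO Tregs 2 were higher and 5 lower (14%, beside 7.02%). The latter included *Ryk* (−3.40, edgeR FDR = 0.00162), *Wnt3* (−3.59, edgeR FDR = 0.00575), *Wls* (−1.26, edgeR FDR = 0.00325) and the receptor gene *Fzd6* (−4.51, edgeR FDR = 0.0423, with at most 1 count per library in these cells), while *Nlk* was higher (0.60, edgeR FDR = 0.00368). Fitted values of genes at so few counts depend on the prior count. Against WT non-Treg cells 1 of 50 was called (2%, beside 0.768%), *Tcf7l1*, a relative of *Tcf7*, which was higher (1.82, edgeR FDR = 0.0453) on 15 to 51 counts per library. Of the 21 calls named from the Wnt lists, 7 held without any 1 library: *Wls*, *Fzd7*, *Ryk* and *Nlk* in WT Tregs against non-Treg cells, and *Ryk*, *Wls* and *Nlk* in KO FoxP3+CD25- cells against KO Tregs.

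Of 13 genes tied to TCF-1 and LEF-1 in T cells, all passed the filter, and 4 were higher and 5 lower in WT Tregs than in WT non-Treg cells (69.2% called, beside 10.9% of all genes). *Il7r*, the interleukin 7 receptor gene, was lower (355 ± 78.5 against 1028 ± 175 CPM, −1.53, edgeR FDR = 0.000305), as were the homing receptor gene *Ccr7* (−0.81, edgeR FDR = 0.0017), *Eomes* (−2.81, edgeR FDR = 0.0049) and *Il6ra* (−0.49, edgeR FDR = 0.011). *Cd44* (0.91, edgeR FDR = 0.00993) and *Gata3* (0.88, edgeR FDR = 0.0123) were higher.

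In KO Tregs against KO non-Treg cells 4 of 13 were lower and none higher (30.8%, beside 6.34% of all genes): *Slamf6* (−1.18, edgeR FDR = 0.000238), *Il7r* (−1.23, edgeR FDR = 0.00222), *Cxcr5* (−0.97, edgeR FDR = 0.0252) and *Il6ra* (−0.46, edgeR FDR = 0.0265). KO FoxP3+CD25- cells had 2 higher and 2 lower than KO Tregs (30.8%, beside 7.02%), with *Il7r* (1.50, edgeR FDR = 0.000615) and *Il6ra* (0.60, edgeR FDR = 0.00594) higher and *Cd44* (17.01 against 118 CPM, −2.80, edgeR FDR = 6.29e-05) and *Cxcr5* lower. Against KO non-Treg cells 4 were lower (30.8%, beside 1.67%): *Cd44* (−3.17, edgeR FDR = 0.000158), *Cxcr5* (−2.45, edgeR FDR = 0.000826), *Slamf6* (−0.81, edgeR FDR = 0.00641) and *Eomes* (−2.66, edgeR FDR = 0.0433). Against WT non-Treg cells 3 were lower (23.1%, beside 0.768%): *Cd44* (−2.45, edgeR FDR = 0.000922), *Cxcr5* (−1.63, edgeR FDR = 0.0149) and *Eomes* (−2.93, edgeR FDR = 0.0398). Between KO and WT non-Treg cells 1 of 13 was called (7.69%, beside 0.145%), *Id3*, an inhibitor of E proteins, which was higher in KO cells (68.8 against 30.2 CPM, 1.19, edgeR FDR = 0.0326). The *Id3* call was lost without any 1 of the 4 libraries (FDR of 0.0795 to 0.277). Of the 22 calls named from this list, 11 held without any 1 library: *Il7r*, *Ccr7* and *Eomes* in WT Tregs, *Slamf6* and *Il7r* in KO Tregs, *Cd44* in the 3 comparisons of KO FoxP3+CD25- cells, *Cxcr5* in those with KO cells, and *Il7r* in that with KO Tregs. *Ccr7* and *Cd44* belong to the naive or effector marker lists too.

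The genes whose log2 CPM followed *Lef1* most closely over the 10 libraries, by Pearson's r among 13786 other genes, were *Gpr132* (0.983), *Klhdc1* (0.982), *Il7r* (0.979), *Pydc3* (0.976) and *Pole2* (0.975). *Gpr132*, a G protein-coupled receptor gene, had mean levels of 146 and 166 CPM in WT and KO Tregs, 273 and 239.8 in WT and KO non-Treg cells, with 290.3 for KO FoxP3+CD25-. Those most like *Tcf7* were *Ggt5* (0.990), *Lypd6b* (0.985), *Fam78a* (0.983), *Slc20a1* (0.983) and *Orai2* (0.982). *Ggt5*, a gamma-glutamyltransferase gene, had 1.50 and 1.39 CPM in WT and KO Tregs, 57.3 and 37.1 in WT and KO non-Treg cells, with 28.5 for KO FoxP3+CD25-. The 10 points share libraries and fall into clusters by sorted population, so these values of r are given as a description.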

How the data were processed

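RNA of 10 libraries was sequenced as 50-base reads, aligned to mm10 (GRCm38) with HISAT2 (version 2.1.0) and counted per gene with HTSeq (version 0.11.1), as the submitters' processing notes give it. The study's methods name another HTSeq version. The authors deposited raw read counts for each gene symbol, without any scaling. Strand setting, edgeR test and filter are not given in the sources used here.

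Counts were analysed with edgeR (version 4.0.16, R version 4.3.3): 1 model of all 10 libraries with a mean per group, filterByExpr (minimum count 10), TMM factors, the bias-adjusted quasi-likelihood F-test (two-sided) and Benjamini-Hochberg adjustment over 13796 genes at FDR 0.05. Residual degrees of freedom were 5. With 2 libraries a group, taken to be separate mice, p-values measure only the spread between these samples. Log2 CPM used a prior count of 2. Positions and lengths came from GENCODE M21.

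Same-numbered libraries within a genotype deviated together (correlations of 0.303 to 0.445 over genes), so a fit blocked by mouse is given where it changed a call. All members and lists (Wnt pathway, T-cell targets, cell type markers) were chosen with earlier results of these data known. Of the lists, 2 genes are not reported here and were left out of every list value. All members are named, as are the up to 6 list genes of lowest p called in each comparison and the 5 genes most like *Lef1* and *Tcf7*. Alternatives were RLE factors, library size, no filter, DESeq2 (version 1.42.0), other edgeR tests, compared libraries alone, blocks, each library left out, WT replicate 1 left out, and *Lef1* and *Gm43352* summed. The steps were tested on simulated data.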

Additional observations from a re-analysis of the deposited data

Results flagged for a closer look

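The KO effect on *Lef1* differed between FoxP3+CD25+ and FoxP3-CD25- cells in the fit with the mouse as a block, by 0.76 on the log2 scale (edgeR FDR = 0.0243), and so did that on *Gm43352*, by 1.16 (edgeR FDR = 0.0349). Both are singled out because the difference itself passed a test. The genes share the first exon of *Lef1*, where it is unknown whether their reads were told apart, so the 2 results cannot be taken as independent. Without the block the FDR was 0.617 for *Lef1* and 0.708 for *Gm43352*. For both genes, both KO mice had a smaller drop from non-Treg cells to Tregs than both WT mice (*Gm43352* log2 ratios of −1.17 and −1.58 against −2.45 and −2.57). Marker sums moved too. In non-Treg cells the effector or memory markers summed to 1686 to 2173 CPM in KO against 756 to 1266 in WT. The naive markers summed to 2861 to 3351 against 3619 to 3831. Of the 10 effector or memory and 6 naive genes, 0 were called between KO and WT non-Treg cells. The median difference of KO effects was 0.35 for the naive markers and −1.14 for the effector or memory markers, again with 0 genes called without the block. Their part in the result was not tested. Groups of 2 libraries were too small to test for single libraries that stand apart.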

How the results depend on the processing

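With 60 called fold changes of the genes named and 916 alternative values, 789 stayed called in the same direction, 127 were no longer called and 0 reversed. Members called in WT Tregs against non-Treg cells numbered 7, but 4 by the exact test and 4 with the compared libraries alone, and 3 to 5 with a library left out. In KO the count was 5, but 8 by the exact test and 3 to 6 with a library left out. Between KO and WT Tregs it was 0, but 1 without the filter, 1 by DESeq2, 1 by the likelihood ratio test, and 0 to 1 with a library left out. With the mouse as a replicate block the counts were 8 for KO Tregs against non-Treg cells, 3 for KO FoxP3+CD25- against KO non-Treg cells and 2 for the difference of KO effects. The replicate block by number gave 6 in KO Tregs against non-Treg cells and 6 in KO FoxP3+CD25- cells against KO Tregs, and changed no other count. Levels moved beyond 1 SD for *Lef1* in WT non-Treg cells (647 CPM with RLE factors, 645 with library size) and *Tcf7* in KO Tregs (889 with library size).

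Values that reversed were not called. With each library left out in turn, they spanned −0.038 to 0.010 for *Lef1* in KO FoxP3+CD25- against WT non-Treg cells, −0.10 to 0.35 for *Gm43352* in KO against WT non-Treg cells, and for *Tcf7* −0.15 to 0.051 in KO against WT Tregs, −0.045 to 0.013 in KO against WT non-Treg cells and −0.13 to 0.066 for the difference of KO effects. In WT Tregs against non-Treg cells they spanned −0.22 to 0.29 for *Tle3*, −0.12 to 0.19 for *Ctnnb1* and −0.0093 to 0.12 for *Apc*, and in KO −0.13 to 0.024 for *Apc*. Without both libraries of WT replicate 1, *Tcf7* became 0.051 and 0.015 in KO against WT Tregs and non-Treg cells and 0.036 for their difference, and in WT *Tle3* became −0.12, *Ctnnb1* −0.028 and *Apc* −0.050. *Lef1* summed with *Gm43352* became 0.038 in KO FoxP3+CD25- against WT non-Treg cells, and *Tcf7* by library size 0.0070 in KO against WT non-Treg cells. The cause was not tested.

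With 2 libraries a group and 5 residual degrees of freedom, sizable values stayed uncalled, such as 1.32 for *Gm43352* between KO and WT Tregs (edgeR FDR = 0.848). Without WT FoxP3+CD25+ replicate 2, genes at an unadjusted p under 0.05 in that comparison rose from 593 to 2201. Calls with the mouse as a block rest on the reading of library numbers as mice.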
